A study of Mus musculus with 6 samples.

Results

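Collagen chain genes encode the chains of the collagens, the main structural proteins of the extracellular matrix. The members were every gene whose symbol had the form Col, a number, a and a number, taken from probe sets annotated to exactly 1 gene symbol, and a gene with several such probe sets was represented by the brightest on average. This gave 44 genes of the 22180 measured: 11 fibrillar, 8 of basement membranes and 25 others. The rule used no difference between the groups. The 44 symbols came from 47 probe sets, since Col1a2, Col5a1 and Col6a1 had more than 1.

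The study set 3 colorectal tumours of the mouse raised in white adipose tissue, the fat-storing tissue, against 3 raised in non-adipose tissue, after injection of the cancer at either site. Tumours were taken at 1 to 1.5 cm3 from 3 mice a group, and each was read on its own array. The sources used here give no cell line, mouse strain, genotype, sex or age, and no exact injection site, so what else the groups share is unknown. Values are log2 signals from a whole-transcript array, so a difference of 1 is a 2-fold difference, and no detection call stood beside them.

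A collagen molecule is a trimer of chains wound into a triple helix of repeated glycine-containing triplets. Fibrillar collagens such as types I, III and V assemble into the tensile fibres of connective tissue and tumour stroma and are made mostly by fibroblasts and myofibroblasts. Type IV collagen instead forms the flexible network of basement membranes under epithelium, around vessels and around adipocytes. The remaining classes link fibres, form microfibrils or span cell membranes. In a whole tumour, fewer cells of a type and less RNA per cell cannot be told apart.

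The labelled tumour type was checked against its markers. The carcinoma keratins Krt8 and Krt18 were bright, with a mean signal over the 6 arrays at percentiles 96.1 and 94.9 among the genes. The intestinal markers Epcam, Cdx2, Vil1, Lgals4, Cdh17 and Krt20 lay at percentiles 29.1, 38.9, 23.3, 42.0, 27.0 and 24.8, below the middle of the genes, as did Krt19 at 43.0. The epithelial cadherin gene Cdh1 lay above it, at 66.9. Adipoq, which defines adipocytes, lay at percentile 15.6 and ran from 4.10 to 4.27 in the white adipose tumours, against 4.14 on each non-adipose array. It was the dimmest of 9 adipocyte markers, of which Fabp4, Pparg and Lipe, genes also active in other cells, lay at percentiles 63.1, 56.7 and 51.7. The mean of the 9 was 5.501, 5.36 and 5.87 in white adipose replicates 1 to 3, against 5.69, 5.48 and 5.66 in non-adipose replicates 1 to 3. White adipose replicate 1 stood apart: the mean log2 signal of 8 skin epithelium markers was 8.06 there, 5.18 and 5.32 in white adipose replicates 2 and 3, and 5.33, 5.22 and 6.05 in non-adipose replicates 1 to 3. Results that rest on that tumour are therefore given with it and without it.

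Sequences are shown for 4 genes, none of which had an adjusted p under 0.05. Col4a1 and Col4a2 are a pair of basement membrane genes that share their start region. Col4a5 is a type IV chain with the opposite sign to that pair and the largest difference of its class. Col1a2 is the fibrillar chain with the largest difference. Their promoter windows, 250 bases before to 50 after the annotated start, are shown from RefSeq, build GRCm38.p6, each 5′ to 3′ on the strand of its gene. Capitals mark CCAAT, the CCAAT box, and GGGCGG, the GC box, on either strand (ATTGG and CCGCCC on the other).
Col4a1, chr8:11312777-11313076, minus strand: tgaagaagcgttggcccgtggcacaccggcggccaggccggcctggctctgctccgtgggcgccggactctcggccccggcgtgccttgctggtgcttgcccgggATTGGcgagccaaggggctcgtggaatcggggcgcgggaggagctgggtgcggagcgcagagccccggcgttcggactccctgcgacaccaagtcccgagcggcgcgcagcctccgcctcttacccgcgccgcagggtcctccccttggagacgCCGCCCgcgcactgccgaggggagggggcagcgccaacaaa
Col4a2, chr8:11312555-11312854, plus strand: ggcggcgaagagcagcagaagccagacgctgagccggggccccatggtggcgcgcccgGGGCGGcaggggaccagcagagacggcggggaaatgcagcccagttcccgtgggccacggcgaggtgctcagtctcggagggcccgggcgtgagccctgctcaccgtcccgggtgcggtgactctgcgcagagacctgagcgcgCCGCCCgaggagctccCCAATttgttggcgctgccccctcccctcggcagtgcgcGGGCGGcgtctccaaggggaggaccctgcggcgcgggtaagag
Col4a5, chrX:141475169-141475468, plus strand: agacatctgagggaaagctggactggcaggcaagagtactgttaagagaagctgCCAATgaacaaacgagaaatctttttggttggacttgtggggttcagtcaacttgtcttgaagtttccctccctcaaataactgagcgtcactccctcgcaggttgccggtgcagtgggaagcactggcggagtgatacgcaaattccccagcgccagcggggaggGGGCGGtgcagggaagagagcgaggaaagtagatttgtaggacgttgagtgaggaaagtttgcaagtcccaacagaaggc
Col1a2, chr6:4505368-4505667, plus strand: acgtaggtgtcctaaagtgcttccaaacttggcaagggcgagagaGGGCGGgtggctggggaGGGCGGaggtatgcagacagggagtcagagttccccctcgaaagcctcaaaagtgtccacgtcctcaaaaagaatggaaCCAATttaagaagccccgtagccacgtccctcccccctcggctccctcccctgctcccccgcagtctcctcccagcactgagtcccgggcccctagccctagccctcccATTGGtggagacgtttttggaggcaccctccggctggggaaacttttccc
The Col4a1 and Col4a2 genes run in opposite directions from starts 21 bases apart, and 78 bases of their windows are the same stretch of chromosome. Col4a5 and Col4a6 also run apart from each other, from starts 1343 bases apart, so their windows do not meet. All 4 windows hold a CCAAT and a GGGCGG, and none holds TATAAA, the TATA box. Windows were matched for 35 of the 44 genes (38 windows). CCAAT was in 13 of the 38 (34.2%), against 37.4% of all 32851 windows. GGGCGG was in 23 of the 38 (60.5%), against 35.7% of all windows, and TATAAA in 5 of the 38 (13.2%), against 13.6%. A match of letters is a description and not evidence of binding.

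The question put to these data was whether collagen genes differed between tumours grown in white adipose tissue and those grown elsewhere. None passed the threshold. With limma and Benjamini-Hochberg adjustment over all 22180 genes, 0 of the 44 had an adjusted p under 0.05, as was the case for 0% of all genes, and the adjusted p-values of the members ran from 0.936 to 1. At an unadjusted p under 0.05, 2 members were lower in white adipose tumours, Col4a1 and Col4a2, against 2.13% of all genes, and 0 were higher, against 1.66% of all genes. All 3 arrays of one site lay apart from all 3 of the other for the same 2 genes on the lower side, where 3.97% of all genes lay, and for 1 gene, Col2a1, on the higher side, where 3.34% lay. No test set these small counts against the shares of all genes, so they are not read as a result about collagens. The means of 22 collagen genes were lower and those of 22 higher, and the median log2 difference was 0.0025, against -0.00043 over all genes. The differences ran from -0.43 for Col1a2 to 0.43 for Col17a1, so no member reached the 0.5 set for individual description. The median 95% confidence interval of a member reached 0.27 to either side of its difference, wider than for all genes (0.24). These intervals are not adjusted for the number of genes. For a typical member a smaller difference was thus not detectable with 3 arrays a group even before adjustment, and the adjusted threshold needs a larger one.

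**Figure D1:**
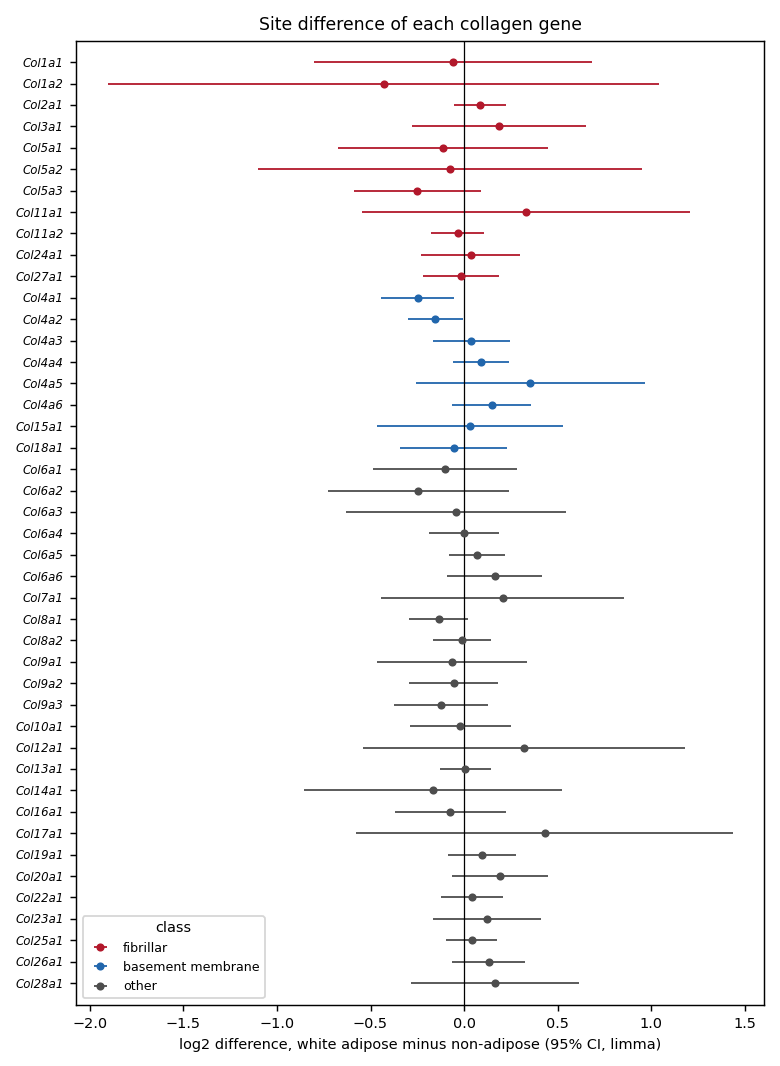
Log2 difference of each of the 44 collagen genes, white adipose minus non-adipose tumours, with its 95% confidence interval from limma on 3 and 3 arrays. Genes run down the page by class, and only the intervals of Col4a1 and Col4a2 lie wholly on the lower side of 0.

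Basement membrane collagens had means on either side, and none passed the threshold. Col4a1 and Col4a2 encode the chains of the type IV network found in nearly all basement membranes. Col4a1 read 8.27, 8.12 and 8.12 in white adipose replicates 1 to 3, against 8.32, 8.52 and 8.41 in non-adipose replicates 1 to 3. Col4a2 read 7.81, 7.74 and 7.78 in white adipose tumours, against 7.87, 7.94 and 7.99 in non-adipose tumours. For both genes every white adipose tumour lay below every non-adipose tumour, with a gap of less than 0.1 between the nearest tumours. Col4a1 averaged 8.17 ± 0.085 in white adipose and 8.42 ± 0.10 in non-adipose tumours (SD, n = 3 each), a log2 difference of -0.25 (SE 0.080), 1.19-fold lower, with a limma adjusted p of 0.936. Col4a2 averaged 7.78 ± 0.035 and 7.93 ± 0.057 in the same order (SD, n = 3 each), a difference of -0.16 (SE 0.060), 1.11-fold lower, with the same limma adjusted p of 0.936.

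With 1 array left out, Col4a1 differed by -0.30 to -0.20 and Col4a2 by -0.18 to -0.13, so the sign held in all 6 fits of each gene. The count of 2 at an unadjusted p under 0.05 became 0 without white adipose replicate 2, without white adipose replicate 3 or without non-adipose replicate 2. It also became 0 with the replicate number as a block, where the unadjusted limma p was 0.0527 for Col4a1 and 0.0903 for Col4a2. Endothelial cells lay down type IV collagen around vessels, so their markers are given beside the pair. Their means were lower for 4 of 10 markers and higher for 6, and their array means ran from 6.56 to 6.73 in white adipose and from 6.47 to 6.74 in non-adipose tumours.

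The other type IV chains had higher means in white adipose tumours, and none was at an unadjusted p under 0.05. Their products form networks of restricted tissues: Col4a5 joins Col4a3 and Col4a4 in the kidney filter, and Col4a6 in skin and smooth muscle. Col4a5 read 7.43, 8.33 and 7.63 in white adipose tumours, against 7.18, 7.62 and 7.53 in non-adipose tumours, a difference of 0.35 (SE 0.25). The groups overlapped, white adipose replicate 2 was the highest tumour, and without it the difference was 0.087. Col4a6 differed by 0.15 (SE 0.087), Col4a4 by 0.088 (SE 0.061) and Col4a3 by 0.039 (SE 0.085). These 3 genes lay at percentiles 32.6 to 35.0 of all genes by mean signal, so part of their signal may be background.

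The multiplexins Col15a1 and Col18a1 encode collagens of basement membrane zones, and cleavage of type XVIII releases the angiogenesis inhibitor endostatin. Col15a1 read 6.85, 6.20 and 6.36 in white adipose tumours, against 6.17, 6.66 and 6.49 in non-adipose tumours, a difference of 0.030 (SE 0.20). Col18a1 read 8.58, 8.71 and 8.43, against 8.48, 8.83 and 8.57, a difference of -0.056 (SE 0.12). Both genes overlapped between the groups. Over the 8 basement membrane genes 3 means were lower and 5 higher, with a median difference of 0.034. The median became -0.056 when only genes above the middle of the signal range were kept, which left 5 of the 8.

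**Figure D2:**
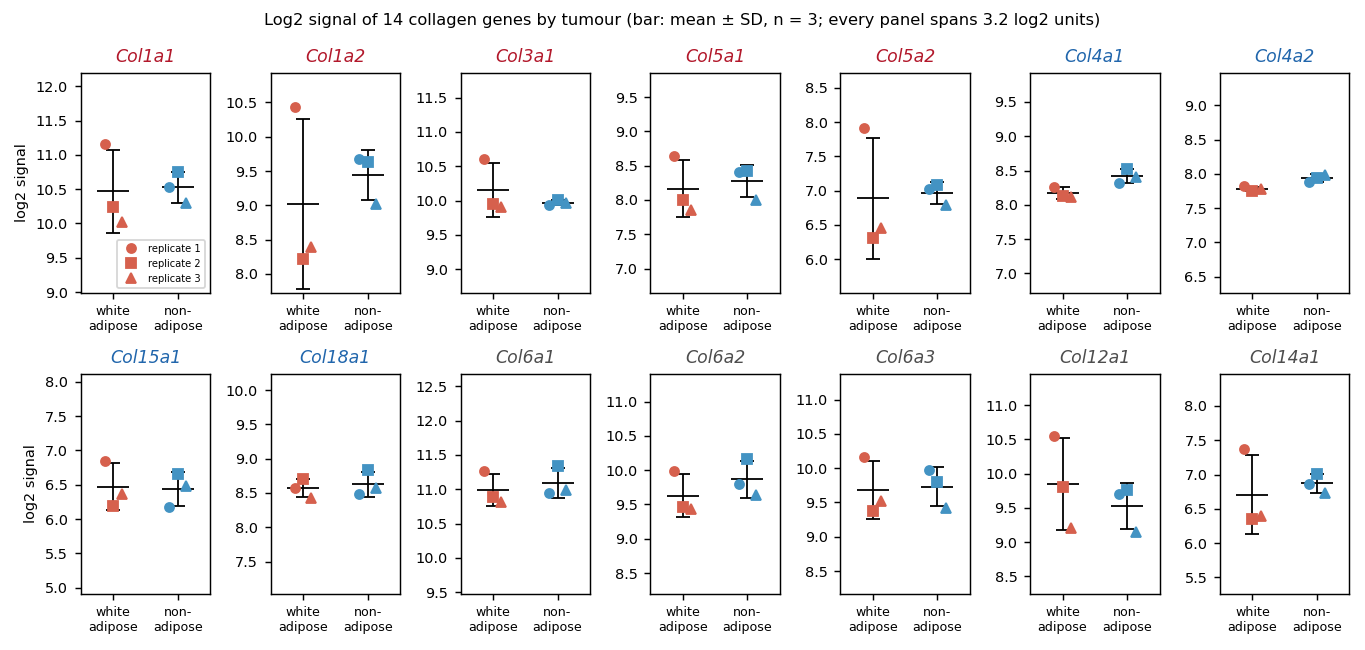
Log2 signal of 14 collagen genes in each tumour, white adipose left of non-adipose, with the mean and SD of 3 tumours as bars and the replicate number as the symbol. Every panel spans the same number of log2 units: Col4a1 and Col4a2 show tight groups that do not overlap, whereas Col1a2 and Col5a2 show white adipose replicate 1 above every other tumour and replicates 2 and 3 below every non-adipose tumour.

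Most fibrillar collagens, like most collagens of the other class, spread more among the white adipose than among the non-adipose tumours. Type I collagen, the chief fibre of stroma, joins chains of Col1a1 and Col1a2. Col1a1 read 11.16, 10.24 and 10.02 in white adipose replicates 1 to 3, against 10.53, 10.76 and 10.30 in non-adipose replicates 1 to 3. Col1a2 read 10.44, 8.21 and 8.39 in white adipose tumours, against 9.68, 9.63 and 9.02 in non-adipose tumours. For both genes white adipose replicate 1 was the highest of the 6 tumours, and white adipose replicates 2 and 3 were the lowest. Col1a2 averaged 9.01 ± 1.24 in white adipose and 9.44 ± 0.37 in non-adipose tumours (SD, n = 3 each), a difference of -0.43 (SE 0.61), and Col1a1 differed by -0.059 (SE 0.31). The second Col1a2 probe set read 8.80, 6.13 and 6.44 in white adipose tumours, against 8.01, 7.91 and 7.06 in non-adipose tumours, which is the same order of tumours.

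Col3a1, the chain of type III collagen, which mixes with type I in pliable tissue, read 10.60, 9.95 and 9.91 in white adipose tumours, against 9.93, 10.01 and 9.97 in non-adipose tumours. Its difference was 0.18 (SE 0.19), and apart from white adipose replicate 1 the 5 tumours lay close together. Type V collagen, which sets the diameter of type I fibres, is made of Col5a1, Col5a2 and Col5a3. Col5a1 read 8.64, 8.002 and 7.85 in white adipose tumours, against 8.40, 8.43 and 8.01 in non-adipose tumours, a difference of -0.11 (SE 0.23). Col5a2 read 7.91, 6.32 and 6.45, against 7.02, 7.09 and 6.79, a difference of -0.076 (SE 0.42). Col5a3 read 7.01, 6.60 and 6.58, against 7.03, 7.08 and 6.83, a difference of -0.25 (SE 0.14). Replicates 2 and 3 of the white adipose group were the lowest of the 6 tumours in all 3 type V genes. The dimmer Col5a1 probe set, which was not the one kept, differed in its order of tumours and had white adipose replicate 1 lowest, at 5.78.

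The fibrillar collagens of cartilage lay near the middle of the signal range or below it. Col11a1 read 6.40, 5.05 and 5.39 in white adipose tumours, against 5.35, 5.54 and 4.96 in non-adipose tumours, a difference of 0.33 (SE 0.36). It thus had white adipose replicate 1 on top and otherwise overlapped. Col11a2, its partner in type XI collagen, differed by -0.035 (SE 0.058). Col2a1, the main cartilage collagen, read 6.07, 6.09 and 6.09, against 5.94, 6.04 and 6.01, a difference of 0.086 (SE 0.057). The groups of Col2a1 did not overlap, with its nearest tumours less than 0.1 apart. The minor fibrillar genes Col24a1 and Col27a1 overlapped between groups. Over the 11 fibrillar genes 7 means were lower and 4 higher, with a median of -0.035.

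White adipose replicate 1 gave the highest of the 6 values in 7 of the 11 fibrillar genes, in 1 of the 8 basement membrane genes and in 6 of the 25 others, against 19.4% of all genes. White adipose replicate 2 or 3 gave the lowest value in 7 of the 11 fibrillar genes, against 31.4% of all genes. The median SD among tumours of the fibrillar genes was 0.39 in the white adipose group and 0.13 in the non-adipose group. Over all genes the median SD was 0.11 in both groups, and over the 25 others it was 0.16 and 0.10 in the same order. The SD was larger in the white adipose group for 8 of the 11 fibrillar genes, all but Col2a1, Col11a2 and Col27a1. It was so for 4 of the 8 basement membrane genes and 19 of the 25 others, against 52.8% of all genes. The mean log2 signal of the 11 genes was 7.92, 7.18 and 7.18 in white adipose replicates 1 to 3, against 7.49, 7.57 and 7.33 in non-adipose replicates 1 to 3.

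**Figure D3:**
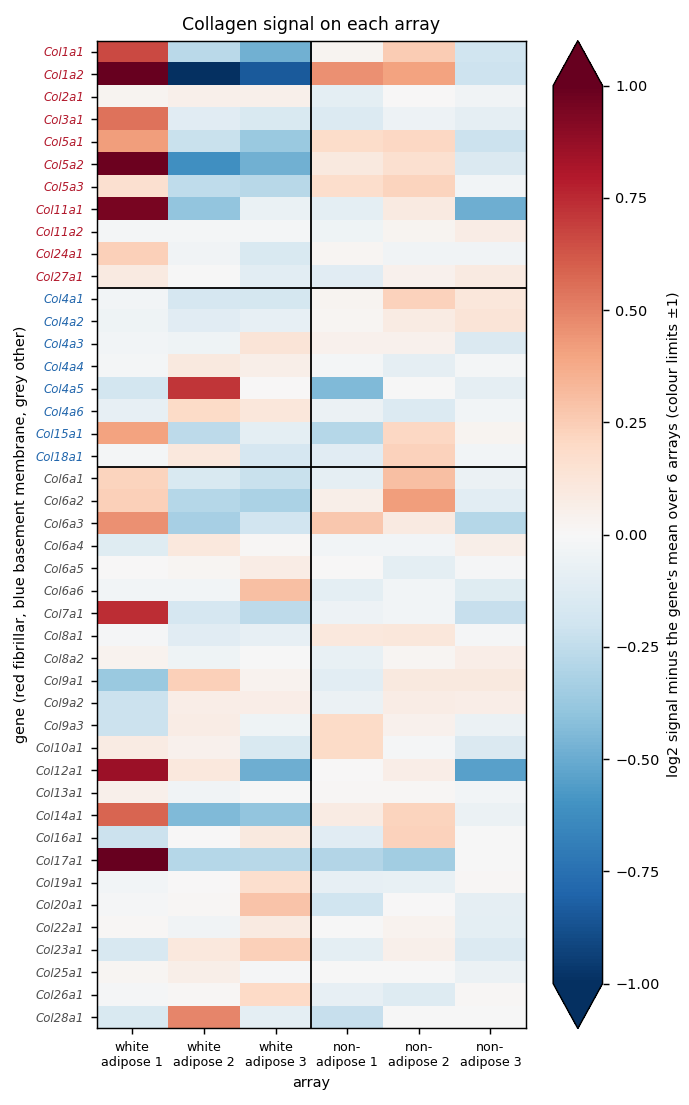
Log2 signal of the 44 collagen genes on each of the 6 arrays, minus the mean of each gene over the 6, with white adipose arrays left of non-adipose arrays and classes separated by lines. Red marks values above the mean of the gene and blue values below it: white adipose replicate 1 is red for Col1a1, Col1a2, Col3a1, Col5a1, Col5a2 and Col11a1, and white adipose replicates 2 and 3 are blue for most of the same genes.

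Leaving out white adipose replicate 1 moved many collagen differences, with 2 white adipose tumours set against 3. Col1a2 then differed by -1.14 (SE 0.23), 2.21-fold lower, Col5a2 by -0.58 (SE 0.11) and Col14a1 by -0.50 (SE 0.097). Col5a3 differed by -0.39 (SE 0.093) and Col1a1 by -0.40 (SE 0.15), whereas Col3a1 was at -0.041 (SE 0.059). None passed the threshold: the smallest limma adjusted p of a member was 0.517, and 0 of all 22180 genes (0%) passed in that fit. At an unadjusted p under 0.05, 7 of the 44 were lower, against 4.42% of all genes: Col1a1, Col1a2, Col5a2, Col5a3, Col14a1, Col4a1 and Col4a2. On the higher side there were 2, Col4a6 and Col23a1, against 3.69% of all genes. Of the fibrillar genes, 10 of 11 then had a lower mean, against 48.6% of all genes, and their median was -0.077. Leaving out white adipose replicate 3 instead brought that median to 0.083, and leaving out white adipose replicate 2 to 0.059.

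**Figure D4:**
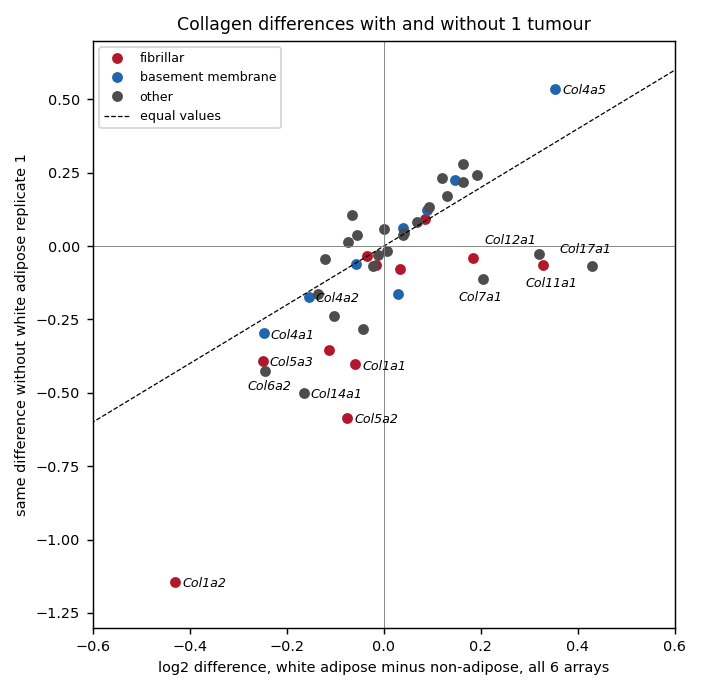
Log2 difference of each collagen gene, white adipose minus non-adipose, from all 6 arrays (horizontal) and without white adipose replicate 1 (vertical), with the line of equal values. Col1a2, Col5a2, Col14a1 and Col1a1 lie well below the line, Col11a1, Col12a1 and Col17a1 drop to near 0, and Col4a1 and Col4a2 stay close to the line.

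Marker lists of other cells are given beside the fibrillar genes. Of 8 pericyte and smooth muscle markers, 5 were highest in white adipose replicate 1, and their mean was 7.78, 6.93 and 6.99 in white adipose replicates 1 to 3, against 7.40, 7.24 and 7.37 in non-adipose replicates 1 to 3. Rgs5, Cspg4 and Des of that list were instead highest in a non-adipose tumour. Acta2, the actin of smooth muscle and myofibroblasts, read 11.09, 10.16 and 10.05 in white adipose tumours, against 10.54, 10.41 and 10.25 in non-adipose tumours. The mean of the 10 fibroblast markers that are not collagens did not follow the same order, at 9.49, 9.55 and 9.32, against 9.02, 9.16 and 9.48. Of the 10, 3 were highest in white adipose replicate 1 and lowest in replicates 2 and 3 of that group: Postn, Thy1 and Mfap5. The rest were highest in another tumour. Within that list Postn, a matrix protein of activated fibroblasts, was at 11.91, 9.82 and 10.04 in white adipose tumours, against 10.81, 10.73 and 10.48 in non-adipose tumours. Lum, a proteoglycan of collagen fibres, was at 10.10, 11.35 and 10.70, against 9.32, 9.38 and 10.48, and so had white adipose replicate 1 lowest in its group. Acta2, Postn and Lum were picked after their values were seen. Of 8 skin epithelium markers 7 were highest in white adipose replicate 1, with all 8 means higher in the white adipose group and all 8 lower without that tumour. The mean difference of the 8 was 0.65 with it and -0.28 without it. Of 9 skeletal muscle markers all had lower means in white adipose tumours, and their array means ran from 5.002 to 5.28 there and from 5.05 to 6.63 in non-adipose tumours. The part of these cell types in the collagen values was not tested.

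**Figure D5:**
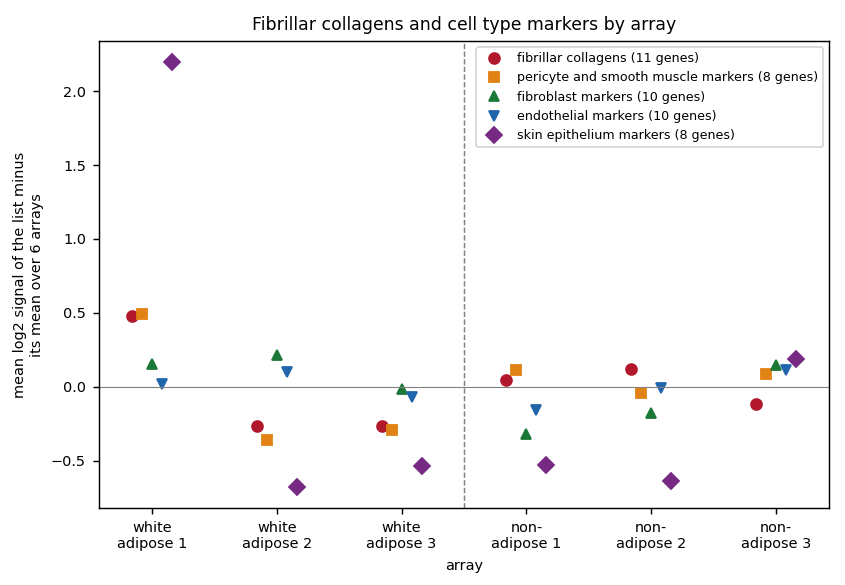
Mean log2 signal of the 11 fibrillar collagen genes and of 4 marker lists on each array, minus the mean of the list over the 6 arrays, with white adipose arrays left of non-adipose arrays. In white adipose replicate 1 the fibrillar collagens and the pericyte and smooth muscle markers lie at about the same height and the skin epithelium markers far above, while fibroblast and endothelial markers lie closer to 0.

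Beaded filament collagens, which form the microfibrils around cells and fat lobules, overlapped between the sites. Type VI collagen joins Col6a1, Col6a2 and Col6a3. Col6a1 read 11.26, 10.89 and 10.82 in white adipose tumours, against 10.95, 11.34 and 10.98 in non-adipose tumours, a difference of -0.10 (SE 0.16). Col6a2 read 9.98, 9.46 and 9.43, against 9.80, 10.17 and 9.64, a difference of -0.24 (SE 0.20), and -0.42 without white adipose replicate 1. Col6a3, whose cleaved end is the adipokine endotrophin, read 10.16, 9.38 and 9.52, against 9.98, 9.79 and 9.42, a difference of -0.044 (SE 0.24). The groups of all 3 genes overlapped. Neither these genes nor the dimmer Col6a4, Col6a5 and Col6a6 were at an unadjusted p under 0.05. The other Col6a1 probe set read 8.43, 7.89 and 7.97 in white adipose tumours, against 8.03, 8.42 and 7.93 in non-adipose tumours.

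FACIT collagens sit on the surface of fibres and link them to other matrix. Col12a1, found in dense and remodelled connective tissue, read 10.55, 9.80 and 9.21 in white adipose tumours, against 9.70, 9.76 and 9.15 in non-adipose tumours, a difference of 0.32 (SE 0.35). Col14a1, its relative in mature fibres, read 7.37, 6.35 and 6.39, against 6.87, 7.01 and 6.73, a difference of -0.17 (SE 0.28). The groups overlapped in both, with white adipose replicate 1 highest in each. The chains of cartilage type IX differed by -0.065 (SE 0.16) for Col9a1, -0.055 (SE 0.098) for Col9a2 and -0.12 (SE 0.10) for Col9a3. Col20a1 differed by 0.19 (SE 0.10), and Col16a1, Col19a1 and Col22a1 overlapped between groups. Of the 9 FACIT genes 5 means were lower and 4 higher.

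Epithelial collagens were highest in white adipose replicate 1. Col7a1 forms the anchoring fibrils and Col17a1 the hemidesmosome collagen that hold the epidermis to its basement membrane, and both were picked for description after their values were seen. Col17a1 read 7.10, 5.61 and 5.61 in white adipose tumours, against 5.60, 5.54 and 5.89 in non-adipose tumours, a difference of 0.43 (SE 0.41) and of -0.066 without white adipose replicate 1. Col7a1 read 7.81, 6.91 and 6.81, against 7.02, 7.04 and 6.84, a difference of 0.21 (SE 0.27) and of -0.11 without that replicate. The same tumour was highest for Krt10, a keratin of upper epidermis, which read 11.59 in white adipose replicate 1, 5.90 and 5.98 in replicates 2 and 3, and 6.06, 6.16 and 6.05 in the non-adipose tumours. Krt10 was picked from 8 skin epithelium markers after their values were seen, and 7 of the 8 peaked in white adipose replicate 1. The exception was Trp63, at 7.26 for non-adipose replicate 3 against 6.81 for that tumour. Krt14 and Dsg3 peaked at 8.54 and 6.30, but non-adipose replicate 3 came next, at 7.23 and 6.09. For these genes a raised signal was thus not limited to a single tumour. The part of epidermis in the Col7a1 and Col17a1 values was not tested.

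Short chain collagens form the hexagonal networks of vessel walls, cornea and growth cartilage. Col8a1, made by vascular and smooth muscle cells, read 9.66, 9.56 and 9.59 in white adipose tumours, against 9.78, 9.78 and 9.66 in non-adipose tumours. The difference was -0.14 (SE 0.065), with an unadjusted limma p of 0.0811 and an adjusted p of 0.936. Its partner Col8a2 differed by -0.012 (SE 0.064). The hypertrophic cartilage gene Col10a1, the membrane-spanning Col13a1, Col23a1 and Col25a1, and Col26a1 and Col28a1 all overlapped between groups. Their differences lay between -0.021 for Col10a1 and 0.16 for Col28a1. Over the 25 genes outside the fibrillar and basement membrane classes, 12 means were lower and 13 higher, with a median of 0.0057.

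Lower means were also counted by signal level, with no test. Of the 25 collagen genes above the middle of all genes by mean signal, 16 had a lower mean in white adipose tumours. Of the 19 below it 6 did. Over the whole range 50.2% of all genes did, and the share within each part of the range is not given here. The median difference was -0.056 in the brighter and 0.042 in the dimmer set. Over all 11090 genes in the brighter part of the range the median was -0.013, with 364 lower and 148 higher at an unadjusted p under 0.05. Low probe sets carry less specific signal, and 9 of the 19 dimmer genes had exactly equal values on 2 or more arrays, against 3 of the 25 brighter and 35.3% of all genes.

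The genes that fold, trim, cross-link and bind collagen were read from a list of 44, 39 of them represented by a single-symbol probe set. None passed the threshold, 19 had lower and 20 higher means, and the median difference was 0.010. At an unadjusted p under 0.05 there were 0 in either direction. The groups did not overlap for 2 of the 39 on the lower side, Adamts14 and Colgalt1, and for 1 on the higher side, Ddr2, against the 3.97% and 3.34% of all genes given above. Colgalt1 differed by only -0.065 (SE 0.063), with its nearest tumours of the 2 groups at 9.041 and 9.042. Without white adipose replicate 1, 4 of the 39 were lower at an unadjusted p under 0.05, Lox, Ctsk, Loxl4 and P4ha1, against 4.42% of all genes, and 1 was higher, Fkbp14, against 3.69%. None then passed the threshold. Collagen folding in the endoplasmic reticulum needs proline and lysine hydroxylases and the chaperone HSP47, encoded by Serpinh1. Serpinh1 differed by 0.13 (SE 0.072), the prolyl hydroxylase subunit gene P4ha1 by -0.18 (SE 0.12), the lysyl hydroxylase gene Plod2 by -0.085 (SE 0.13) and the proline isomerase gene Fkbp14 by 0.33 (SE 0.17). Of these 18 folding genes 9 means were lower and 9 higher.

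Outside the cell, the propeptides are removed and the chains cross-linked. Adamts14, an aminopropeptide protease, read 7.43, 7.74 and 7.82 in white adipose tumours, against 7.98, 8.08 and 7.83 in non-adipose tumours, a difference of -0.30 (SE 0.12) with an unadjusted limma p of 0.0502. Its groups did not overlap, and without white adipose replicate 1 the difference was -0.18. With the mean over the probe sets of each gene it was -0.15, with an unadjusted limma p of 0.137. Lox, which makes the aldehydes that cross-link fibrils, read 9.15, 7.07 and 7.03 in white adipose tumours, against 7.93, 8.25 and 8.19 in non-adipose tumours. It differed by -0.37 (SE 0.57) over all 6 arrays and by -1.07 without white adipose replicate 1, with a limma adjusted p of 0.319, and like Col1a2 it was highest in white adipose replicate 1 and lowest in replicates 2 and 3 of that group. Its relatives Loxl3 and Loxl4 differed by -0.20 (SE 0.10) and -0.23 (SE 0.13), and Loxl1 by 0.24 (SE 0.22), or 0.42 without white adipose replicate 1. Of the 4 cross-linking genes measured, 3 means were thus lower and 1 higher. Ddr2, a receptor tyrosine kinase for fibrillar collagen, read 10.72, 10.94 and 10.75, against 10.64, 10.47 and 10.69, a difference of 0.20 (SE 0.092). Every white adipose tumour lay above every non-adipose tumour in Ddr2, and its limma adjusted p was 0.936.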

How the data were processed

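Total RNA from 6 mouse tumours, 3 white adipose and 3 non-adipose, was labelled with the WT PLUS kit and read on 6 Affymetrix arrays, per the labels' protocols. The authors deposited 41345 probe sets on a scale read as log2 signal, since the values lay between 0.973 and 13.6 and every array median between 5.66 and 5.69; 0 values were missing, and 0 columns belonged to other samples. The submitters' processing notes name Affymetrix Expression Console. Its version, background correction and normalization: not given in the sources used here. A step that equalises arrays would remove a shift shared by most genes. The design text gives 3 mice a group, and the labels call the samples biological replicates. Arrays correlated at 0.983 to 0.995 over genes.

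Of the probe sets, 23521 had exactly 1 symbol in the platform annotation, and 22180 genes remained with 1 probe set each. limma 3.58.1 in R 4.3.3 (lmFit, eBayes without trend) was fitted to all genes, white adipose minus non-adipose, with Benjamini-Hochberg adjustment at 0.05; SEs are moderated. The script was tested on simulated data with equal spread in both groups and no outlying array. That test therefore does not cover the uneven spread seen here. Class medians have no test. Values on every array were given for 14 genes set by rule, for members at an unadjusted p under 0.05 or a log2 difference of at least 0.5, and for some of their partners in a trimer, chosen like Col2a1, Col7a1, Col8a1, Col17a1 and the single markers after their values were seen; of the pathway list the 6 smallest p-values and Lox, Serpinh1, P4ha1 and Plod2 were named, and Loxl1, Colgalt1 and Ctsk after their values were seen. The members and lists were chosen with earlier results of these data known. Symbols absent as single-symbol probe sets (Plod3, Fkbp10, Adamts2, Loxl2 and Itga10) were not analysed here. Alternatives were the probe set rule, array scale, a signal filter, eBayes settings, array weights, the replicate block and leaving out each array.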

Additional observations from a re-analysis of the deposited data

How the results depend on the processing

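Of the results here, 0 collagen genes passed the threshold under every alternative, including each fit with 1 array left out. The count of 2 collagen genes lower at an unadjusted p under 0.05 was 1 after quantile normalization, 4 with array weights, 0 with the replicate block and 0 to 7 with 1 array left out. The count of 0 higher was 1 with array weights and 0 to 2 with 1 array left out. The median of the basement membrane genes moved to -0.056 with only genes above the middle signal. With that filter the median of all collagen genes also changed sign, from 0.0025 to -0.056, and that of the other class became negative. These medians, like the fibrillar one, moved by less than the spread between arrays. Individual differences of the 44 collagen genes and 11 pathway genes were recomputed. They changed sign with array weights for Col15a1 (-0.064), Col7a1 (-0.0024), Col9a1 (0.045), Col9a2 (0.0096), Col24a1 (-0.042), Col6a4 (0.035) and Col13a1 (-0.0094). Col13a1 also did so with array medians subtracted (-0.0035) and quantile normalization (-0.018). With 1 array left out, the genes among these that changed sign ranged -0.10 to 0.069 for Col10a1, -0.065 to 0.61 for Col11a1, -0.028 to 0.64 for Col12a1, -0.018 to 0.025 for Col13a1, -0.50 to 0.012 for Col14a1, -0.16 to 0.17 for Col15a1, -0.15 to 0.023 for Col16a1, -0.066 to 0.68 for Col17a1, -0.13 to 0.045 for Col18a1, -0.40 to 0.17 for Col1a1, -0.077 to 0.12 for Col24a1, -0.076 to 0.032 for Col27a1, -0.042 to 0.28 for Col28a1, -0.041 to 0.31 for Col3a1, -0.025 to 0.070 for Col4a3, -0.35 to 0.044 for Col5a1, -0.58 to 0.21 for Col5a2, -0.24 to 0.022 for Col6a1, -0.28 to 0.11 for Col6a3, -0.055 to 0.058 for Col6a4, -0.11 to 0.39 for Col7a1, -0.050 to 0.020 for Col8a2, -0.20 to 0.11 for Col9a1, -0.10 to 0.038 for Col9a2, -0.72 to 0.075 for Ctsk and -0.21 to 0.020 for Plod2. The cause was not tested. The labels give no pairing of tumours by replicate number, and the values here cannot settle whether there was one. Deviations from the group means of same-numbered tumours correlated at 0.14, 0.064 and 0.064. Those of differently numbered tumours ran from -0.18 to 0.086, and not every tumour correlated best with its own number. The block changed the count of lower collagen genes to 0, as given above, and no adjusted call. Over all genes at an unadjusted limma p under 0.05, the block gave 577 lower and 504 higher, against 473 and 368 without it. The precision is limited by 3 arrays a group, and low values have no detection call.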
